A study of Mus musculus with 10 samples.

Results

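The genes described here are 7 cathepsins and 3 genes of their inhibitors, 10 of the 35667 genes counted in mouse aorta. They were taken by name: the cathepsins Ctsa, Ctsb, Ctsd, Ctsh, Ctsk, Ctsl and Ctsz, and the inhibitor genes Cst3, Ctla2a and Ctla2b. The list was drawn up with the counts of knockout and wild-type libraries already known, in which Ctla2a and Ctla2b stood out as lower in the knockout. Their differences between genotypes are therefore descriptions, and no test of them is used as evidence. All 10 passed the filter on low counts, as did 15710 genes in all.

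RNA was sequenced from aorta of C57BL/6 mice aged 12 weeks, in 5 libraries titled as Ovgp1 knockout (KO) and 5 titled as wild type (WT). Ovgp1 encodes oviductal glycoprotein 1, a secreted protein that the study examined in hypertension and remodelling of the vessel wall. No label tells how the allele was made, which part of the gene it removes, or whether each library is a separate animal. The genotype field of KO replicates 2 to 5 names Ovgp2 to Ovgp5 in place of Ovgp1. No label gives a treatment.

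Before the results, 2 facts on the libraries bear on every comparison. The targeted gene went against the labels: Ovgp1 had 19.4 ± 1.66 CPM in the libraries labelled KO (SD, n = 5), against 1.98 to 4.69 CPM in the libraries labelled WT. Since the deleted part is not known, a count over the whole gene does not show whether its transcript was intact, and directions here follow the labels. An exchange of the labels would turn every direction round. CPM is a library's counts scaled to a common total, here with the TMM factors of edgeR. The libraries labelled KO were also nearly alike, and the labels do not tell whether they had 1 source or several. Over up to 12509 genes the chi-square per degree of freedom, which is 1 where counting error alone separates a pair of libraries, was 1.77 to 3.25 between libraries labelled KO and 11.0 to 154 between those labelled WT, over 10 pairs each. The SD of a KO value is thus close to counting error, and p-values measure the spread between these libraries only. For that reason a fit with the KO counts summed into 1 sample, which takes its spread from WT, stands beside the fit of 5 against 5 libraries. Total counts ran from 24434745 to 26694590 per library labelled KO and from 21242030 to 24396394 per library labelled WT. The 8 smooth muscle markers of the tissue summed to 36490.1 to 37142 CPM in KO and 26597 to 40304 CPM in WT. Most of that sum was Acta2, with 22404 to 22968 CPM in KO and 14722 to 25020 CPM in WT, and Myh11. Tagln, with 20.8 to 23.5 CPM in KO and 22.3 to 29.3 CPM in WT, was the only one of the 8 past the test, beside 14.3% of all genes.

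Cathepsins are proteases that work mostly in the acid interior of lysosomes, and some are also secreted into the vessel wall, where they can cut elastin and collagen. Most are cysteine proteases made as inactive precursors, whose propeptide covers the active site until it is cut off. Cystatins, such as the secreted cystatin C encoded by Cst3, block cysteine cathepsins from outside. Ctla2a and Ctla2b, known from mice and first described in activated T lymphocytes, encode small proteins that resemble the free propeptide of cathepsin L, and the Ctla2a product inhibits cathepsin L.

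Ctla2a (ENSMUSG00000044258; chromosome 13, 60934155 to 60936625 in GRCm38) and Ctla2b (ENSMUSG00000074874; chromosome 13, 60895350 to 60897447) lie 36.7 kb apart on the minus strand, and Ctsl (ENSMUSG00000021477; chromosome 13, 64359337 to 64370890) lies 3.42 Mb further along the same chromosome. Stretches of 300 coding bases of each gene are shown because reads from one may be counted for the other. They come from the GENCODE M21 transcripts with the longest complete coding sequence, bases 73 to 372 for Ctla2a and the aligned bases 1 to 300 for Ctla2b, read 5′ to 3′. Capitals mark the 13 bases that differ between the genes.
Ctla2a: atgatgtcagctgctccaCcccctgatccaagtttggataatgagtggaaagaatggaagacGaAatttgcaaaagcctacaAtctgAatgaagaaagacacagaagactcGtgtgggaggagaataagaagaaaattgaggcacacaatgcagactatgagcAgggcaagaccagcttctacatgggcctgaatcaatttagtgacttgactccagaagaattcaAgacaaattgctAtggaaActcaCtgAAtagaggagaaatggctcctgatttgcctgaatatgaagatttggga
Ctla2b: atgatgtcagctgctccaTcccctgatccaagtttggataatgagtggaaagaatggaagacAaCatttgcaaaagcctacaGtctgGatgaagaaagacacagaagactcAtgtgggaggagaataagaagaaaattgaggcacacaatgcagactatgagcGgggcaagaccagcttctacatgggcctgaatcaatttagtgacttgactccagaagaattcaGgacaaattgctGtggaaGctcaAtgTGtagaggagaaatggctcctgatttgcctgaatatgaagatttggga
The annotated coding sequence of Ctla2a has 414 bases and that of Ctla2b 342, and 329 of 342 aligned bases were identical, or 96.2%. Of 1324 windows of 50 bases in the Ctla2a transcript, 94, or 7.1%, also occur in a Ctla2b transcript. Of 793 such windows in the Ctla2b transcript, 94, or 11.9%, also occur in a Ctla2a transcript. Only exact matches were counted, so windows alike but for a mismatch are left out. The read length and the treatment of reads with several matches are both not given in the sources used here. How uncertain the separate values of both genes are is therefore not known. Against Ctsl, 213 of 365 aligned bases of the Ctla2a coding sequence were identical (58.4%), between bases 14 and 404 of the Ctsl coding sequence, the end that encodes the signal peptide and propeptide.

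Ctla2a was lower in the libraries labelled KO than in every library labelled WT. It had 5.43, 5.15, 5.84, 6.87 and 5.21 CPM in KO replicates 1 to 5, against 14.0, 11.9, 15.7, 31.5 and 28.4 CPM in WT replicates 1 to 5. The groups did not overlap, and within WT, replicates 4 and 5 stood at about double the level of the other libraries. The fitted log2 difference was -1.83 (SE 0.27), a 3.56-fold lower level in KO, and -1.83 (SE 0.61) with the KO libraries summed.

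Ctla2b behaved differently from its neighbour across the WT libraries. It had 2.99, 2.86, 2.73, 2.49 and 2.52 CPM in KO replicates 1 to 5, against 2.26, 10.8, 3.09, 10.8 and 9.38 CPM in WT replicates 1 to 5. WT replicates 1 and 3 thus lay at the level of the KO libraries, WT replicate 1 below all of them, and the lower KO mean came from WT replicates 2, 4 and 5. The fitted log2 difference was -1.42 (SE 0.41), and -1.42 (SE 0.92) with the KO libraries summed. The share of mitochondrial genes in the counts was 7.61 to 7.88% in KO. In WT it was 16.2% and 13.2% for those low replicates, 1 and 3, and 6.75 to 9.59% for the rest. The part of the mitochondrial share in the Ctla2b values was not tested. Leaving out these 2 low WT libraries necessarily deepens the Ctla2b difference, to a log2 value of -1.91.

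The balance of the pair changed from library to library. For each Ctla2b count there were 1.80 to 2.77 Ctla2a counts in the libraries labelled KO. In WT replicates 1 to 5 the ratio was 6.20, 1.11, 5.06, 2.92 and 3.03, so the lowest and the highest ratio were both found in WT. Added together, the 2 genes had 8.42 ± 0.62 CPM in KO and 27.6 ± 11.7 CPM in WT (SD, n = 5 each), from 7.73 to 9.36 CPM in KO and from 16.3 to 42.3 CPM in WT, without overlap.

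Both genes also varied widely within WT, which is a description, since the choice of genes used the same WT values. The SD of log2 CPM over the 5 WT libraries was 0.63 for Ctla2a, above that of 96.2% of 4678 genes whose WT level was within 2-fold of it. For Ctla2b it was 1.07, above 98.1% of 3131 such genes. The other 8 genes had SDs of 0.07 to 0.18, which placed them between 12.2% (Ctsz) and 60.4% (Ctsk) of genes of like level.

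**Figure D1:**
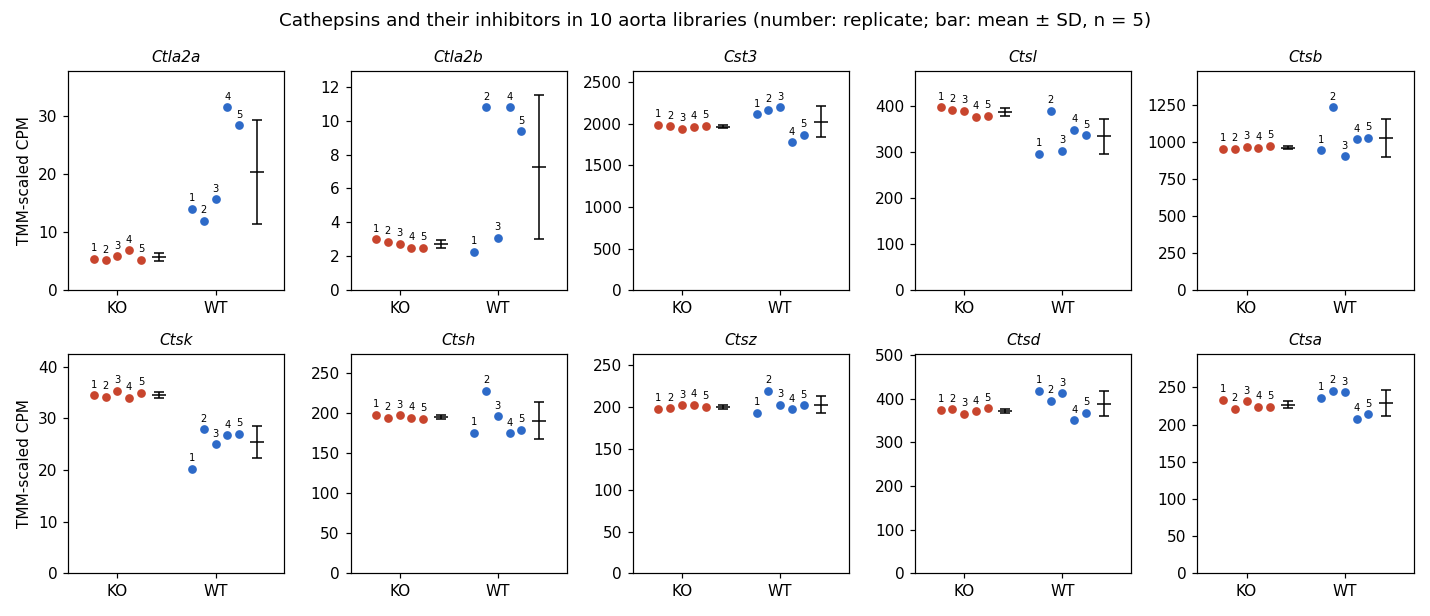
TMM-scaled CPM (vertical axis, from 0) of the 10 genes in each library labelled KO (red, left) and WT (blue, right), with the replicate number above each point and the mean ± SD of 5 libraries as a bar. Ctla2a and Ctsk show no overlap between groups, and Ctla2b has 3 high WT libraries and 2 at the KO level.

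The sequence before the start sites of the pair was compared as well, since the 2 genes differ in pattern across WT libraries. The windows run from 250 bases before to 50 bases after a RefSeq start on GRCm38.p6, and capitals mark bases with no match in the other window, the overhanging ends included. The Ctla2a window is chromosome 13, 60936576 to 60936875, and the Ctla2b window is chromosome 13, 60897398 to 60897697, both on the minus strand.
Ctla2a promoter: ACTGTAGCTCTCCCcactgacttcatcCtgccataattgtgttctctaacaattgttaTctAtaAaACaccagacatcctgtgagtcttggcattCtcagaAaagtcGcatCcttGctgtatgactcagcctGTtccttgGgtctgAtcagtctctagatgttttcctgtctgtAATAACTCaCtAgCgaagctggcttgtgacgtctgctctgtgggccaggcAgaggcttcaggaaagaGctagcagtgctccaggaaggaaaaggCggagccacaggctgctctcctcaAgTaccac
Ctla2b promoter: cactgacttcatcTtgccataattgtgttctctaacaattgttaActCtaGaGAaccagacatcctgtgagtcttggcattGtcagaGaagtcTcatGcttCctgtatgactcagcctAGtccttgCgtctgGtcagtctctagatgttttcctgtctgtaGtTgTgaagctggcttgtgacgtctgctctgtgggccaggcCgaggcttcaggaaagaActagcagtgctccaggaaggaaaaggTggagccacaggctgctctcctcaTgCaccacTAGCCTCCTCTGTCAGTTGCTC
Of 278 aligned bases, 255 were identical, or 91.7%. The letters TATAAA, searched on both strands, occur in the 2 overlapping Ctla2a windows and not in the Ctla2b window, against 13.6% of all 32851 windows. Both Ctla2a windows hold the same site, which lies well before either start. RefSeq windows were matched for 8 of the 10 genes, in 10 windows. The letters CACGTG, the core of the element bound by TFEB, a factor that drives lysosomal genes, and also of other E-boxes, occur in windows of Ctsa, Ctsd and Ctsl, which is 3 of the 10 windows against 7.15% of all windows. The longer CLEAR palindrome around that core occurs in 0 of the 10 windows and in 0.326% of all. A match of letters is a description and does not show binding.

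Among the genes whose profile was most like that of Ctla2a over 6 points (summed KO and the 5 WT libraries) were Cebpb, Socs3 and Neb. Likeness was the root mean square difference between centred log2 CPM, which was 0.44, 0.45 and 0.46 for these genes against a median of 0.83 over 12548 genes. Cebpb, a transcription factor of acute-phase and myeloid genes, had 1.52 to 2.55 CPM in KO and 3.49 to 6.13 CPM in WT. For Ctla2b the nearest genes were much closer: Plac8 at 0.12, Ms4a4a at 0.22 and Ccl6 at 0.22, against a median of 0.99. Plac8 had 1.61 to 3.03 CPM in KO, and 1.54, 7.65, 2.20, 7.04 and 7.75 CPM in WT replicates 1 to 5, with the same 3 WT libraries high as for Ctla2b. Ccl6, a chemokine of myeloid cells, had 24.0 to 25.5 CPM in KO, and 16.1, 86.8, 17.4, 85.8 and 75.5 CPM in WT replicates 1 to 5. For every 100 CPM of Plac8 there were 82.9 to 170 CPM of Ctla2b in KO and 121 to 153 in WT. Plac8 and Ccl6 were picked for likeness to Ctla2b in these same libraries. Their shared pattern and this ratio therefore follow from the choice. These ranks describe 6 points only, and Ctla2a itself ranked behind 1025 genes in likeness to Ctla2b.

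Markers of other cells moved between libraries too. The summed level of 12 endothelial markers, none at 0 in any library, was 497 to 514 CPM in KO, and 405, 750, 340, 962 and 810 CPM in WT replicates 1 to 5. The KO libraries thus lay inside the WT range, and 0 of 12 passed the test between genotypes, beside 14.3% of all genes. Pecam1 made up much of the sum, with 155 to 160 CPM in KO, and 143, 405, 107, 366 and 324 CPM in WT replicates 1 to 5. The markers did not move together. In WT replicate 2, Cdh5 (18.3 CPM), Tie1 (13.3 CPM), Kdr (5.69 CPM), Emcn (3.16 CPM) and Eng (57.6 CPM) lay below all KO libraries. Pecam1, Vwf, Erg, Esam and Egfl7 lay above them there, and Tek and Cldn5 inside the KO range. Per 100 CPM of the 12 markers, Ctla2a had 1.03 to 1.34 CPM in KO and 1.59 to 4.61 CPM in WT. The sum of 8 brown and white adipocyte markers was 728 to 757 CPM in KO, and 578, 768, 398, 2242 and 1673 CPM in WT replicates 1 to 5. It was highest in WT replicates 4 and 5, as was Ctla2a, and 0 of 8 passed the test between genotypes, beside 14.3% of all genes. Of 12 T and NK cell markers 6 (Cd8b1, Trac, Nkg7, Gzma, Gzmb and Klrb1c) were at 0 in at least 1 library. Their sum was 7.15 to 8.03 CPM in KO and 2.93 to 7.18 CPM in WT. Of the 8 tested, 2, Cd4 and Cd8a, were higher in KO, where 6.84% of all genes were higher. The sum of 12 glucocorticoid-responsive genes was 1619 to 1667 CPM in KO, and 2065, 4310, 1603, 3605 and 3367 CPM in WT replicates 1 to 5, high in the libraries with high Ctla2b. Mt1 alone had 232 to 236 CPM in KO, and 362, 1892, 338, 1224 and 1130 CPM in WT replicates 1 to 5. Not all genes of the list followed that pattern: Per1 was lowest in WT replicate 2 (43.9 CPM), and Cdkn1a was highest in WT replicate 1 (275 CPM). Of the 11 tested genes of that list 4 fell in KO (Fkbp5, Cdkn1a, Errfi1 and Mt1), where 7.43% of all genes were lower. Mt2 had 0 counts in every KO library and at most 3 in any WT library. The part of these markers in the Ctla2a and Ctla2b values was not tested. In whole aorta, fewer cells of a type and less RNA per cell cannot be told apart.

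**Figure D2:**
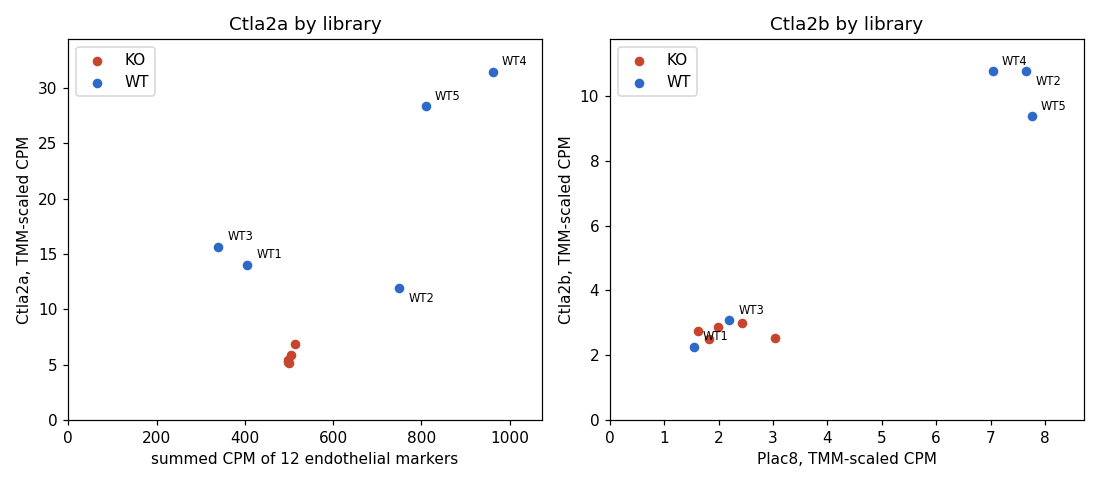
Left, Ctla2a against the summed CPM of 12 endothelial markers, and right, Ctla2b against Plac8, in TMM-scaled CPM on axes from 0, with 1 point per library (KO red, WT blue). WT replicates 4 and 5 are high on both axes at left, with the KO libraries below all WT libraries in Ctla2a. At right WT replicates 2, 4 and 5 stand apart and WT replicates 1 and 3 lie among the KO libraries. Plac8 was picked for its likeness to Ctla2b in these same libraries, so the shared pattern at right follows from the choice.

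Cst3, the gene of secreted cystatin C, overlapped between groups. It lies on chromosome 2, 148871722 to 148875692 (ENSMUSG00000027447), and had 1963 ± 18.6 CPM in KO and 2023 ± 190 CPM in WT (SD, n = 5 each). WT replicates 1, 2 and 3 lay above all KO libraries and WT replicates 4 and 5 below them. The log2 difference was -0.04 (SE 0.07), and it took the opposite sign with library totals in place of TMM factors.

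Of the 7 cathepsins, Ctsk had the largest log2 difference. Ctsk (ENSMUSG00000028111; chromosome 3, 95499256 to 95509362) encodes cathepsin K, a strong collagenase best known from osteoclasts. It had 34.5, 34.2, 35.4, 34.0 and 34.9 CPM in KO replicates 1 to 5, against 20.3, 27.9, 25.0, 26.7 and 27.1 CPM in WT replicates 1 to 5. The lowest KO library exceeded the highest WT library, with a log2 difference of 0.45 (SE 0.08), a ratio of 1.36, and 0.45 (SE 0.18) with the KO libraries summed. The sum of 11 fibroblast markers was higher in KO as well, at 4152 to 4198 CPM against 3544 to 3939 CPM in WT, with 5 of 11 past the threshold and none at 0. Per 100 CPM of those markers Ctsk had 0.819 to 0.847 CPM in KO and 0.565 to 0.754 CPM in WT, and the part of these markers in the Ctsk values was not tested. The 5 markers past the threshold were Dcn, Lum, Dpt, Scara5 and Cd34, all higher in KO, where 6.84% of all genes were higher. Dcn alone had 1505 to 1557 CPM in KO and 967 to 1283 CPM in WT. Of the rest, none past the threshold, Col1a1 (log2 difference -0.34), Mfap5 (-0.31) and Pdgfra (-0.05) were lower in KO. Col1a2 (0.02), Clec3b (0.12) and Pi16 (0.13) were higher.

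Ctsl, which encodes the elastin- and collagen-cutting endopeptidase cathepsin L, differed less. It had 397, 392, 390, 378 and 379 CPM in KO replicates 1 to 5, against 296, 390, 303, 348 and 336 CPM in WT replicates 1 to 5. WT replicate 2 reached the KO level and the other 4 lay below it, with a log2 difference of 0.21 (SE 0.07). Set against its propeptide-like inhibitor, there were 54.9 to 76.2 Ctsl counts for each Ctla2a count in KO and 11.1 to 32.7 in WT, without overlap. Ctla2a was listed with its lower KO level known, so this gap largely restates that choice. The fitted ratio of KO to WT was 1.16 for Ctsl alone.

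Ctsb, the most abundant of the 7 cathepsins by counts and per length (ENSMUSG00000021939; chromosome 14, 63122462 to 63145923), encodes cathepsin B, which cuts both inside proteins and at their ends. Ctsb had 956, 954, 969, 961 and 976 CPM in KO replicates 1 to 5, against 945, 1237, 905, 1020 and 1032 CPM in WT replicates 1 to 5. The KO libraries lay inside the WT range (log2 difference -0.09, SE 0.08). Ctsh (ENSMUSG00000032359; chromosome 9, 90054152 to 90076089), an aminopeptidase, had 195 ± 2.21 CPM in KO and 191 ± 22.6 CPM in WT. Ctsz (ENSMUSG00000016256; chromosome 2, 174427493 to 174439039), a carboxypeptidase, had 200.3 ± 2.09 CPM in KO and 203 ± 10.2 CPM in WT, and its WT spread, 5.03% of the mean, was the smallest of the 10 genes. For both, the KO range lay inside the WT range.

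Both cathepsins that are not cysteine proteases also overlapped between groups. Ctsd (ENSMUSG00000007891; chromosome 7, 142375911 to 142388038), the aspartic protease cathepsin D, had 372 ± 4.74 CPM in KO and 389 ± 29.3 CPM in WT. Ctsa (ENSMUSG00000017760; chromosome 2, 164832873 to 164841032), a serine carboxypeptidase that protects lysosomal galactosidase and neuraminidase, had 227 ± 5.15 CPM in KO and 229 ± 17.3 CPM in WT. In Ctsa and Ctsd, as in Cst3, WT replicates 4 and 5 were the lowest of the WT libraries. WT replicate 2 was instead the highest WT library for Ctsa, Ctsb, Ctsh, Ctsk, Ctsl and Ctsz. That library also had the highest sum of macrophage markers, 479 CPM against 265 to 358 CPM in the other WT libraries and 379 to 390 CPM in KO. Of 12 tested macrophage markers 2 (Adgre1 and Csf1r) were past the threshold, both higher in KO, beside 14.3% of all genes past it in either direction. Itgam had the largest log2 difference, -1.21, lower in KO but not past the threshold. Also not past it, Fcgr1 (-0.31), Lyve1 (-0.24), Mrc1 (-0.18) and C1qb (-0.14) were lower in KO. Lyz2 (0.23), C1qc (0.22) and C1qa (0.20) were higher, and Cd68 and Cd163 hardly differed. A second row of Itgam was the only entry at 0 in any library. Per CPM of these markers there were 2.45 to 2.56 CPM of Ctsb in KO and 2.58 to 3.57 CPM in WT. The part of these markers in the cathepsin values was not tested.

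Summed over the 7 cathepsins, the level was 2380 ± 12.5 CPM in KO and 2400 ± 195 CPM in WT (SD, n = 5 each), with the KO libraries inside the WT range. Per length (CPM per kb of merged exons in GENCODE M21), the order of levels was the same by mean in both groups: Cst3, Ctsb, Ctsd, Ctsz, Ctsl, Ctsa, Ctsh, Ctsk, Ctla2a, Ctla2b. Cst3 had 1550.5 ± 14.7 in KO and 1598 ± 150 in WT on this scale, Ctsb 159 ± 1.48 in KO and 170 ± 21.2 in WT, Ctsk 22.9 ± 0.37 in KO and 16.8 ± 2.02 in WT, and Ctla2b 1.58 ± 0.13 in KO and 4.21 ± 2.46 in WT. In WT, neighbours in this order overlapped except Cst3 with Ctsb, Ctsz with Ctsl, and Ctsh with Ctsk. In KO only Ctsb and Ctsd overlapped.

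**Figure D3:**
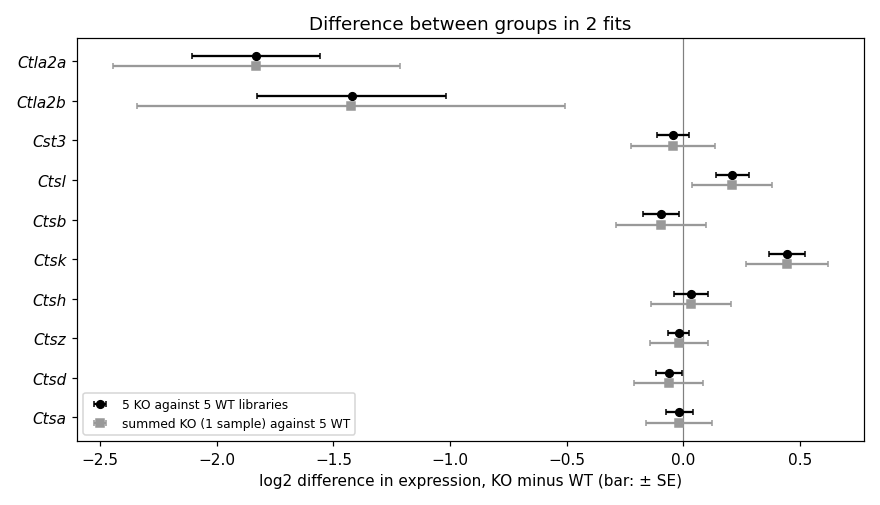
Log2 difference in expression, KO minus WT (horizontal axis), for the 10 genes, with bars of ± SE, in the fit of 5 against 5 libraries (black) and with KO summed into 1 sample (grey). Estimates hardly move between the fits, while the SE of Ctla2a is 0.27 in one and 0.61 in the other, and 7 of the 10 genes lie close to 0.

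In the fit across all genes 3 of the 10 genes passed an adjusted p of 0.05 (edgeR's quasi-likelihood test, Benjamini-Hochberg over 15710 genes), Ctla2a and Ctla2b lower and Ctsk higher. Of all genes tested 14.3% passed, 6.84% higher and 7.43% lower, and since the genes were chosen on this contrast nothing is read from their count. The split of all calls was 1075 higher and 1167 lower, and 1561 higher and 493 lower with library totals, or 1294 higher and 676 lower without the filter on low counts. Of all genes 14.6% had no overlap between groups, and among the 10 this held for Ctsk (all KO above, as for 7.38% of genes) and Ctla2a (all KO below, as for 7.22%). The median log2 difference was -0.03 over the 10 genes and -0.02 over all genes. Ctla2b lost its place past the threshold without any 1 of the 5 libraries labelled KO (edgeR adjusted p between 0.0806 and 0.0927), or without WT replicate 2 (0.0747), 4 (0.0772) or 5 (0.0820). It was also lost with library totals (0.0611), without the low-count filter (0.164) and by limma-voom (0.119), and 5 of the 17 alternatives that kept the KO libraries separate kept it. With the KO libraries summed 0 of the 10 passed, as did 0.0446% of genes, and 2 of the 10, Ctla2a and Ctsk, had an unadjusted p under 0.05 (edgeR), as did 3.72% of all genes, from which nothing is read either. Ctsl, with an adjusted p of 0.0719 in edgeR, was past the threshold by DESeq2 (0.0417), without the low-count filter (0.0109) and once WT replicate 2 was left out (0.00479).

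Among cathepsins outside the member list, Ctso and Ctss rose in the libraries labelled KO, and both lie on chromosome 3 with Ctsk and with Ovgp1. Ctso (ENSMUSG00000028015; 81932601 to 81956725), a widely expressed cysteine cathepsin, had 49.7, 47.3, 48.0, 45.9 and 52.4 CPM in KO replicates 1 to 5, against 37.2, 35.8, 36.9, 32.1 and 33.6 CPM in WT replicates 1 to 5. The log2 difference was 0.47 (SE 0.06, edgeR adjusted p = 0.000477), the groups did not overlap, and the call held in all 17 alternatives that kept the KO libraries separate. Ctss (ENSMUSG00000038642; 95526786 to 95556403), the elastin-cutting cathepsin S of macrophages and other antigen-presenting cells, had 15.3 to 16.5 CPM in KO, against 9.19, 13.8, 9.93, 13.5 and 13.2 CPM in WT replicates 1 to 5. The log2 difference was 0.40 (SE 0.11, edgeR adjusted p = 0.0348), without overlap, but it missed the threshold without any of the 5 KO libraries (0.0685 to 0.0842) or WT replicate 3 (0.0536). WT replicates 1 and 3, lowest in Ctss, also had the lowest sums of macrophage markers, and the part of those in Ctss was not tested. With the KO libraries summed neither passed (edgeR adjusted p 0.957 for Ctso and 0.999 for Ctss).

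Ctss lies 17.4 kb from Ctsk, 10.4 Mb from Ovgp1, and Ctso 24.0 Mb from Ovgp1. Of 782 tested genes of chromosome 3, 7.8% were called higher and 7.67% lower, near the shares of all genes. The other 2 tested cathepsins did not pass: Ctsf had 81.8 ± 1.62 CPM in KO and 79.4 ± 6.02 CPM in WT, and Ctsc, which activates serine proteases of immune cells, 71.5 ± 1.22 CPM in KO and 63.7 ± 14.9 CPM in WT (SD, n = 5 each). Of 16 listed cathepsins 14 were found and 4 tested, with 2 higher and 0 lower, where 6.84% of all genes were higher, and a median log2 difference of 0.29. The remaining 10 found, most of them placental cathepsins from the stretch of chromosome 13 that also holds Ctla2a and Ctla2b, had at most 82 counts over the 10 libraries together.

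Other inhibitors gave a single call. Of 29 listed 21 were found and 7 tested, with 0 higher and 1 lower, where 7.43% of all genes were lower, and a median log2 difference of -0.21. Serpinb6a, an intracellular serpin, fell to 167 ± 3.77 CPM in KO, against 194 ± 11.7 CPM in WT (SD, n = 5 each; log2 difference -0.21, SE 0.05, edgeR adjusted p = 0.0166). It missed the threshold with library totals (0.201), without the low-count filter (0.141) and without KO replicate 2 (0.0517) or 3 (0.0516), by the same edgeR test. Cstb, the intracellular cystatin B, had 51.4 ± 1.62 CPM in KO and 55.3 ± 7.00 CPM in WT, and the liver protein gene Ahsg had 11.0 CPM in KO and 8.83 to 36.8 CPM in WT, neither past the threshold. Without WT replicate 1 or WT replicate 3, 2 inhibitor genes were lower, beside 1046 and 1361 of all genes in those settings.

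Genes that carry cathepsins to lysosomes and keep those acid went in both directions. All 30 listed genes were tested, and 4 rose and 2 fell, 20% against 14.3% of all genes, with a median log2 difference of 0.02. Igf2r, the larger receptor for the mannose 6-phosphate tag of lysosomal enzymes, rose to 133 ± 3.16 CPM in KO, against 104 ± 11.6 CPM in WT (log2 difference 0.36, SE 0.07, edgeR adjusted p = 0.00761). Sort1, a sorting receptor, had a log2 difference of 0.16 (SE 0.04, adjusted p = 0.0202), Sumf1, which activates sulfatases, 0.25 (SE 0.05, adjusted p = 0.0113), and the proton pump subunit gene Atp6v1a 0.24 (SE 0.05, adjusted p = 0.0125), all by edgeR's test. Scarb2, the receptor that carries glucocerebrosidase, fell to 257 ± 6.38 CPM in KO, against 351 ± 61.8 CPM in WT (log2 difference -0.45, SE 0.10, edgeR adjusted p = 0.0140), and Atp6v0d1 had -0.26 (SE 0.06, adjusted p = 0.0183). The calls of Scarb2 and Atp6v0d1 were lost with library totals (0.0640 and 0.0758) and without the low-count filter (0.0549 and 0.0503). That of Sort1 was lost without KO replicate 1, 2 or 3 (up to 0.0607), and that of Atp6v0d1 without KO replicate 1 or 5 (up to 0.0547). The most abundant members did not pass: Lamp1 had 497 ± 3.92 CPM in KO and 475 ± 35.5 CPM in WT, Cd63 380 ± 5.59 CPM in KO and 408 ± 35.4 CPM in WT, and Atp6ap1 323 ± 4.51 CPM in KO and 303 ± 27.3 CPM in WT. Without WT replicate 2, 9 of the 30 were higher, beside 8.62% of all genes.

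The other lysosomal hydrolases and their cofactors that passed were all higher in KO. Of 32 tested of 33 listed, 5 rose and 0 fell, 15.6% against 14.3% of all genes, with a median log2 difference of 0.12. Ids, iduronate sulfatase, rose to 188 ± 4.55 CPM in KO, against 145 ± 7.48 CPM in WT (log2 difference 0.38, SE 0.05, edgeR adjusted p = 0.000591). Manba, beta-mannosidase, had a log2 difference of 0.43 (SE 0.06, edgeR adjusted p = 0.000806), Gusb, beta-glucuronidase, 0.23 (SE 0.05, edgeR adjusted p = 0.00914), and Arsb, arylsulfatase B, 0.42 (SE 0.12, edgeR adjusted p = 0.0394). For these 4 genes the groups did not overlap. Of the 32 tested hydrolase genes, 6 had no overlap with KO higher, beside 7.38% of all genes, and 0 had no overlap with KO lower, beside 7.22%. Arsb lost its call without any of the 5 KO libraries (0.0524 to 0.0969) and without WT replicate 3 (0.0626). The abundant Psap, the saposin precursor, and Grn, the progranulin gene, were not past the threshold, with log2 differences of 0.06 and 0.05. Without WT replicate 1 the count of higher hydrolase genes was 8, beside 7.6% of all genes higher in that setting. Without WT replicate 2 it was 11, beside 8.62% of all genes, and with library totals 14, beside 9.94%. None of the 4 lists had a call once the KO libraries were summed (0 genes, edgeR).

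**Figure D4:**
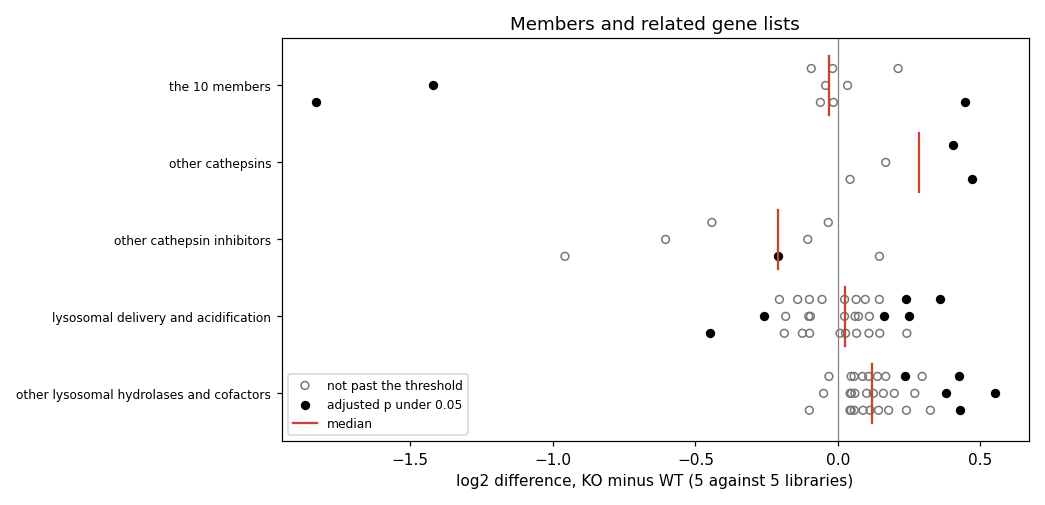
Log2 difference, KO minus WT, of 5 against 5 libraries (horizontal axis), for each tested gene of the member list and of 4 related lists, filled where the adjusted p was under 0.05, with a red line at each list's median (vertical position within a list only separates points). Ctla2a and Ctla2b lie farthest below 0, and the called lysosomal hydrolases all lie above 0.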

How the data were processed

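RNA was extracted from frozen aortas with Trizol and made into Illumina TruSeq RNA libraries, per the labels' protocols. Each library has a table that the authors deposited, with raw read counts for 35667 Ensembl genes. Bowtie 0.12.2 and, as builds, both mm8 and mm9 appear in the submitters' processing notes without a stated role. The counter, its annotation and its use of strand are all not given in the sources used here. Antisense or overlapping genes may therefore share reads. Positions and exon lengths come from GENCODE M21 (GRCm38), which matched 35562 gene identifiers.

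Counts of 5 KO and 5 WT libraries, grouped by title, were fitted for all genes with edgeR 4.0.16 (R 4.3.3; TMM, filterByExpr with a minimum count of 10 and total of 15, robust quasi-likelihood F test), adjusted by Benjamini-Hochberg at 0.05. Each SE was taken as the absolute log2 difference over the root of F. A second fit summed the KO libraries into 1 sample over the same genes. Spread on the log2 scale used CPM plus 0.1. Alternatives were RLE factors, library totals, no low-count filter, DESeq2 1.42.0, limma-voom (limma 3.58.1), a block for the replicate number, omission of each library in turn or of WT replicates 1 and 3 together, and Ctla2a and Ctla2b summed. The members and lists were chosen with earlier results of these data known. Named genes are all members, up to 6 called genes of smallest p and the 3 most abundant per list, and the 3 genes of nearest profile to Ctla2a and to Ctla2b averaging 1 or more in log2 CPM. For agreement between libraries, genes averaging 50 counts or more were used. Some genes that this rule names are not reported here.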

Additional observations from a re-analysis of the deposited data

How the results depend on the processing

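Over the alternatives run, Ctla2a stayed lower in KO in 19 of 19 (log2 difference -2.05 to -1.62) and Ctla2b in 18 of 18 (-1.91 to -1.17), and Ctsk (0.36 to 0.52) and Ctsl (0.13 to 0.28) stayed higher in 18 of 18. The genes were chosen with this contrast known, and the groups of Ctla2a and Ctsk did not overlap. Their constant sign is therefore not read as support. Ctla2a and Ctla2b counted as 1 gene gave -1.71. The small differences of Cst3, Ctsa, Ctsd and Ctsz changed sign in some alternatives. Between KO and WT libraries of the same replicate number, deviations from the group means had correlations of -0.04 to 0.04. Since the KO deviations are close to counting error, these values cannot show whether libraries were paired. With the replicate block 694 genes were higher and 625 lower, and Ctla2b did not pass (adjusted p = 0.119, edgeR). Ctss, Serpinb6a, Sort1, Atp6v0d1 and Arsb did not pass either. Other cathepsins then had 1 higher, other inhibitors 0 lower and the lysosomal delivery list 1 lower. With KO as 1 sample 7 genes were higher and 0 lower (585 at an unadjusted p under 0.05, edgeR; DESeq2 and limma-voom were not run on summed counts), with 0 in every list. Without WT replicates 1 and 3, 2204 were higher and 2182 lower, with 7 higher and 5 lower in the delivery list, 11 higher hydrolases and 4 lower inhibitors. Library totals gave 493 lower genes, 7 higher and 0 lower in the delivery list, 14 higher hydrolases and 0 lower inhibitors. Without the low-count filter 676 genes were lower, the delivery list had 0 lower, hydrolases 9 higher and inhibitors 0 lower, and the summed fit gave 114 higher and 11 lower. DESeq2 was run without that filter, on 35667 genes. Its median log2 difference was -0.13, against -0.10 by edgeR without the filter and -0.02 by edgeR over the 15710 filtered genes. DESeq2 called 1427 genes higher and 1361 lower, with 7 higher in the delivery list and 8 higher hydrolases. Leaving out 1 library gave 656 to 1374 higher and 626 to 1361 lower genes, the low ends (up to 706 and 687) without any 1 KO library. In the summed fit it gave 1 to 5 higher genes. In the lists it gave 1 to 2 higher other cathepsins, 0 to 2 lower inhibitors, 3 to 9 higher and 1 to 3 lower delivery genes, and 4 to 11 higher hydrolases. The causes were not tested. Genes at the level of Ctla2b, with 50 to 262 counts per library, carry the largest counting error among the 10. No member's library stood apart within its group by Dixon's criterion over 20 groups checked.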
